A study of Homo sapiens with 6 samples.

Results

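The nuclear genes of the oxidative phosphorylation complexes were followed by 4sU-seq in A375, a cell line from a human melanoma, carrying an empty vector (EV) or expressing PRL3. They were taken by symbol. Every protein-coding gene outside the mitochondrial chromosome was a member if it was named NDUFA, NDUFB, NDUFC, NDUFS or NDUFV with a digit, NDUFAB1, SDHA to SDHD, UQCR with any ending, CYC1, CYCS, COX4 to COX8 with any ending, or ATP5 with any ending. The rule gave 92 of the 58243 genes counted. Of these, 37 belonged to complex I, 4 to complex II, 10 to complex III, 19 to complex IV, 19 to complex V and 1 was cytochrome c, and 2 were readthrough genes placed in no complex. The rule itself reads names alone.

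Oxidative phosphorylation is the main route by which mitochondria make ATP. Complexes I and II pass electrons from NADH and succinate to ubiquinone, complex III passes them on to cytochrome c, and complex IV hands them to oxygen. Complexes I, III and IV pump protons across the inner membrane, and complex V, the ATP synthase, uses the returning protons to make ATP. A few catalytic subunits are encoded in mitochondrial DNA. All others are nuclear genes, many of them short and strongly expressed in most cell types, and their products are imported into the mitochondrion.

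The EV cells were A375 stably transfected with an empty plasmid and the PRL3 cells were A375 stably transfected with a plasmid for human PRL3, tagged with HA according to the methods of the study, with 3 libraries of each. Both were kept in Hygromycin B and given 500 µM 4-thiouridine (4sU) for 20 min, after which the labelled RNA was biotinylated, pulled down and freed of ribosomal RNA. The experiment asked how a high level of PRL3, a protein tyrosine phosphatase, alters nascent transcription. The study turned to reads in introns to avoid possible effects of splicing and of carried-over mRNA. The counts below are of reads on exons, and the part of mature RNA in them was not tested. Nothing in the labels says whether the libraries of a group came from separate cultures, and the stable line is the unit that differs between groups, so the p-values below measure only the spread between these libraries.

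Reads counted on genes ranged from 36532207 to 57952035 per library. PTP4A3, the gene of PRL3, had 161, 212 and 279 normalized counts in the EV libraries and 22328, 28767 and 22065 in the PRL3 libraries, so every library matched its label. Normalized counts are reads counted on a gene, scaled to the mean effective library size. Of the uniquely aligned reads, 30.2%, 28.7% and 41.1% fell outside annotated exons in EV replicates 1, 2 and 3, and 69.1%, 62.8% and 66.9% in PRL3 replicates 9, 10 and 11. The part of this difference in the results below was not tested. Among markers of the melanocyte lineage, SOX10 had 18852, 28364 and 21173 normalized counts in EV and 13254, 13992 and 10593 in PRL3, and S100B had 3070.3, 3164 and 2342 and 1121, 1115 and 1053. MITF, the transcription factor that specifies pigment cells, had 1492, 1208 and 1433 in EV and 1714, 1795 and 1809 in PRL3, with every PRL3 library above every EV library, and a log2 fold change of 0.36 that did not pass the test. MLANA and TYR, defining genes of pigment cells, were at or near 0 in every library. Summed over each pair of genes, the immune, epithelial and endothelial markers did not exceed 10.9, 12.2 and 8.42 in any EV library or 7.44, 28.9 and 9.65 in any PRL3 library.

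Most members of the complexes were lower in PRL3 cells. Of the 84 members with enough reads to test, 71 fell, 4 rose and 9 passed in neither direction (quasi-likelihood F test of edgeR, Benjamini-Hochberg over 23884 genes, threshold 0.05). Of all genes tested, 22.7% fell and 20.0% rose (42.7% in either direction), and of the protein-coding genes 31.6% fell and 15.2% rose (46.8% in either direction). Among the members, 84.5% fell. The median log2 fold change of the 84 was -1.38 (quartiles -1.96 and -0.91), against 0.11 for all genes tested and -0.15 for the other protein-coding genes. A log2 fold change below -1 was seen for 61 members and one below -2 for 19. In bulk RNA, fewer cells with a transcript and less transcript per cell cannot be told apart.

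The groups of libraries were fully separated for nearly all members. Each of the 71 members that fell had its 3 PRL3 libraries below its 3 EV libraries, each of the 4 that rose had them above, and the groups overlapped for the other 9. Over all genes tested, every PRL3 library was below every EV library for 26.6% and above for 29.7%. The spread within groups was smaller than the gap between them. Against the EV mean of each member, the median member had a log2 deviation of 0.12, 0.098 and -0.22 in EV replicates 1, 2 and 3, and of -1.53, -1.25 and -1.33 in PRL3 replicates 9, 10 and 11. EV replicate 3, the lowest of the EV libraries here, also had the highest share of reads outside exons in its group.

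**Figure D1:**
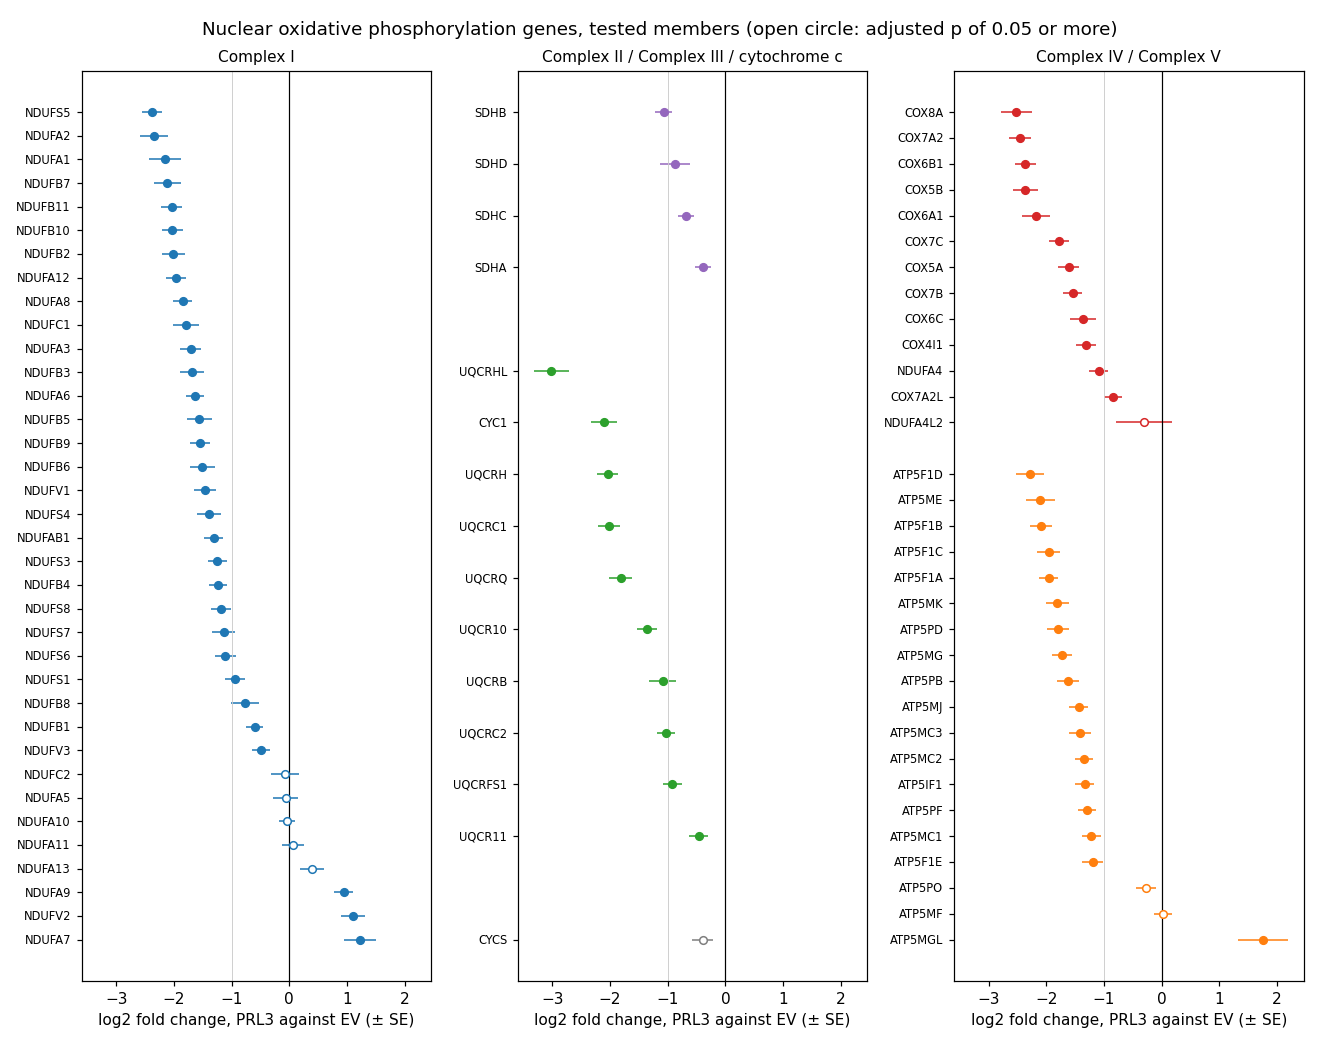
Log2 fold change of PRL3 against EV (x axis) for the tested members other than 1 not reported here, in columns by complex and in order of fold change, with bars of 1 standard error; in the middle column complex II comes first, then complex III and cytochrome c, and in the right column complex IV comes before complex V. Filled circles passed the test and open circles did not, and the filled points left of 0 are members that fell.

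The size of the change depended on how the libraries were put on one scale. The median of all genes moved from 0.11 with TMM scaling to 0.60 with library size alone and to -0.36 with all uniquely aligned reads as the library size. The median of the members moved with it, to -0.88 and -1.87. Another scaling shifts all genes nearly alike, so the distance from the median of all genes, -1.49 with TMM, could hardly move with it. Other choices could move it. It was -1.23 with protein-coding genes alone, -1.39 with at least 10 counts in every library, and from -1.66 (without EV replicate 3) to -1.38 (without PRL3 replicate 9) when 1 library was left out. The members took 1.24% ± 0.107 of the gene counts in EV and 0.608% ± 0.0423 in PRL3 (SD, n = 3), and 0.774% ± 0.144 and 0.193% ± 0.0293 of the uniquely aligned reads.

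The promoters of these genes are known for binding sites of the factors NRF1, ETS family members such as GABP, and YY1. The RefSeq tables (GRCh38.p14) held a window of 300 bases around the start, 250 before and 50 after, for 72 of the 92 members. Each exact run of letters was searched on both strands. The NRF1 core GCGCATG was in 15 of the 72 windows (20.8%), against 5.85% of 15289 windows of protein-coding genes and 4.43% of all 35116. For the ETS core CCGGAAG the shares were 27.8% (20 of 72), 14.4% and 10.3%. For the YY1 core AAGATGG they were 22.2% (16 of 72), 6.44% and 5.84%, and for the ERR core AAGGTCA, read by estrogen-related receptors, 12.5% (9 of 72), 3.13% and 3.92%. The CCAAT box, searched as CCAAT, was as frequent in members (36.1%, 26 of 72) as in protein-coding genes (36.6%) and all windows (34.6%). No run contains another, and a match is a description of the sequence only.

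Few members with a window did not fall. Among the 58 members with a window that fell, 14 held the NRF1 core, 19 the ETS core, 13 the YY1 core, 8 the ERR core and 21 a CCAAT box. Among the 6 that passed the test in neither direction, 1 held the NRF1 core, 1 the ETS core, 1 the YY1 core, 1 the ERR core and 2 a CCAAT box. Of the 3 that rose, 2 held the YY1 core and none held the others. The sequences just before the outermost annotated start, clear of the untranslated regions annotated for any gene, are printed for the lowest member with a usable stretch in complexes I, III, IV and V. They are followed by NDUFA7 and NDUFV2, which rose, so that both kinds can be read side by side. NDUFA9, which also rose, had no usable stretch. Capitals mark the letters searched, on either strand. NDUFA1, UQCRH and COX8A held an ETS core here, COX8A also held a CCAAT box, and the stretches of ATP5F1C, NDUFA7 and NDUFV2 held none of the letters searched. The full windows held further matches outside these stretches. They were the NRF1 core at 2 places in ATP5F1C, the YY1 core in NDUFA7, a CCAAT box in UQCRH, and an ERR core and another CCAAT box in COX8A. The full window of NDUFV2 held none. The stretches lie at chrX:119871734-119871831 (plus strand), chr1:46303617-46303697 (plus), chr11:63974470-63974619 (plus), chr10:7787997-7788146 (plus), chr19:8321380-8321495 (minus) and chr18:9102480-9102629 (plus).
NDUFA1: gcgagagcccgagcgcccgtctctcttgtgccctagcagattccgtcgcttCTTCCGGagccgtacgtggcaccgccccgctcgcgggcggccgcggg
UQCRH: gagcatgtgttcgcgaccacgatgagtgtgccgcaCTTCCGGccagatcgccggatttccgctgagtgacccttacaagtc
COX8A: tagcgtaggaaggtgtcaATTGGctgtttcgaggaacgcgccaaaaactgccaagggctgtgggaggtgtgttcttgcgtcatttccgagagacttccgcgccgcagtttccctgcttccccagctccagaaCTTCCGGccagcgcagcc
ATP5F1C: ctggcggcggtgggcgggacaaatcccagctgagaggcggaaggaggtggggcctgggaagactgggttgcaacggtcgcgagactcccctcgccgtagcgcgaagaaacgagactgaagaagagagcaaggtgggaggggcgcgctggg
NDUFA7: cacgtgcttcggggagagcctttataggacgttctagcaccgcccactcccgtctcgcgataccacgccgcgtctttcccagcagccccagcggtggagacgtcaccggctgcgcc
NDUFV2: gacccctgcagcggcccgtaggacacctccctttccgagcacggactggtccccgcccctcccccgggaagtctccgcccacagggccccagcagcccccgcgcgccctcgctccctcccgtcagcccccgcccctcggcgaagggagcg

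Complex I, the NADH dehydrogenase, is the largest of the complexes and had most of the exceptions. Its fold changes ran from -2.38 to 1.23 on the log2 scale. Of its 37 genes, all tested, 29 fell, 3 rose and 5 did neither, with a median log2 fold change of -1.31. Its catalytic core was taken as 7 nuclear subunits, among them those that carry the flavin and the iron-sulfur clusters or bind ubiquinone. The core had a median of -1.13, and NDUFV2 in it rose. The 30 accessory subunits, which surround and stabilize the core, had a median of -1.53, and 23 fell and 2 rose.

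NDUFS5, an accessory subunit on the intermembrane space side (chromosome 1, 39026318 to 39034636, GRCh38), had the lowest fold change of complex I. It had 13926, 13533 and 9882 normalized counts in EV replicates 1, 2 and 3 and 2225, 2724 and 2213 in PRL3 replicates 9, 10 and 11. The EV mean was 5.21 times the PRL3 mean as fitted, and the log2 fold change was -2.38 (SE 0.18, edgeR adjusted p = 4.88e-06). NDUFA2, an accessory subunit with a thioredoxin-like fold, had 7014, 9091 and 5238 in EV and 986, 1819 and 1402 in PRL3. Its log2 fold change was -2.34 (SE 0.24, edgeR adjusted p = 1.57e-05). NDUFA1, a small membrane subunit encoded on the X chromosome whose upstream sequence is printed above, had 6155, 6877 and 4255 in EV and 703, 1717 and 1471 in PRL3, with a log2 fold change of -2.15 (SE 0.28, edgeR adjusted p = 6.28e-05). In all 3 genes the highest PRL3 library was far below the lowest EV library.

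Most of the catalytic core fell. NDUFV1, which holds the flavin where NADH is oxidized, had 10296, 14017 and 10235 normalized counts in EV and 3422, 5111 and 3987 in PRL3, a log2 fold change of -1.46 (SE 0.19, edgeR adjusted p = 5.27e-05). NDUFS1, the subunit with the most iron-sulfur clusters, had 5523, 3913 and 3793 in EV and 2446, 2178 and 2246 in PRL3, a log2 fold change of -0.95 (SE 0.17, edgeR adjusted p = 0.000678). NDUFS7, which helps to form the pocket for ubiquinone, changed by -1.13 (SE 0.20) on the log2 scale, NDUFS3 by -1.25 (SE 0.16) and NDUFS8 by -1.18 (SE 0.17). These 5 core subunits ranged from -1.46 to -0.95.

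NDUFV2, the core subunit that holds an iron-sulfur cluster beside NDUFV1, went the other way. It had 1228, 984 and 1649 normalized counts in EV and 2483, 2498 and 3328 in PRL3, a log2 fold change of 1.10 (SE 0.20, edgeR adjusted p = 0.000733). All PRL3 libraries were above all EV libraries. NDUFA9, an accessory subunit that binds a nucleotide cofactor, had 1209, 1072 and 1081 in EV and 1873, 2247 and 2345 in PRL3, a log2 fold change of 0.94 (SE 0.16, edgeR adjusted p = 0.0004). NDUFA7 had far fewer reads, 101, 131 and 159 in EV and 361, 278 and 282 in PRL3, and a log2 fold change of 1.23 (SE 0.27, edgeR adjusted p = 0.00268). NDUFV2, NDUFA9 and NDUFA7 share 28.4%, 10.6% and 32.5% of their exon length with other genes on the same strand. These are shares of the merged exons of all annotated transcripts, which are longer than the reference transcript. The lengths are 2711 against 857 bp for NDUFV2, 10391 against 8356 bp for NDUFA9 and 1392 against 580 bp for NDUFA7. The shared part of the reference transcript was not measured and may be larger. The mode for counting reads on exons of more than 1 gene is not given in the sources used here. From 2085008 to 4744596 reads per library were set aside as ambiguous. Exons shared on the same strand were found for 15 of the 71 members that fell, 3 of the 4 that rose and 5 of the 9 that did neither. The counts of all these genes are therefore uncertain, and the part of the overlap in the fold changes was not tested.

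A further 5 complex I genes passed the test in neither direction. NDUFA10, a membrane arm subunit related to nucleoside kinases, had 3963, 4613 and 4386 normalized counts in EV and 4099, 4431 and 4125 in PRL3. NDUFA11, a subunit of the membrane arm, had 1264, 1952 and 1979 in EV and 1598, 2007 and 1842 in PRL3. NDUFA13, also known as GRIM-19, had 520.0, 685 and 831 in EV and 759.8, 1000.1 and 919.7 in PRL3. For all 3 the groups overlapped. NDUFA5 had 2029, 1091 and 1289 in EV and 1374, 1289.6 and 1572 in PRL3, and NDUFC2 had 485, 451 and 286 and 347, 385 and 428. Their log2 fold changes were -0.035, 0.068, 0.40, -0.058 and -0.074, and their calls moved with the scaling. With library size alone NDUFA10, NDUFA11 and NDUFA13 passed the test as higher, and with all uniquely aligned reads NDUFA10 passed as lower (-0.51). NDUFA13 also passed as higher with upper-quartile scaling (0.57), with protein-coding genes alone (0.57) and without EV replicate 3 (0.56). NDUFV3 and NDUFB8 fell by 0.49 and 0.77 on the log2 scale. They lost the call in several alternatives, among them the fits without PRL3 replicate 10 and without PRL3 replicate 11. NDUFA11, NDUFA13, NDUFC2 and NDUFB8 share 9.65%, 21.0%, 18.6% and 33.8% of their exon length with other genes on the same strand. The counts of these 4 genes are therefore uncertain.

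Complex II, succinate dehydrogenase, belongs to the citric acid cycle as well as to the respiratory chain and is encoded by nuclear genes alone. Its 4 genes all fell, but by less than most members, with a median of -0.78. SDHB, the iron-sulfur subunit (chromosome 1, 17018664 to 17054032), had 7222, 6669 and 5513 normalized counts in EV and 2919, 3118 and 3192 in PRL3, a log2 fold change of -1.07 (SE 0.15, edgeR adjusted p = 0.000111). SDHC, a membrane anchor, had 9705, 8424 and 8225 in EV and 5161, 5825 and 5428 in PRL3, a log2 fold change of -0.68 (SE 0.14, edgeR adjusted p = 0.00197). The groups were separate for both. SDHD, the other membrane anchor, had 1303, 733 and 640.1 in EV, where replicate 1 stood high, and 405, 506 and 549.9 in PRL3, a log2 fold change of -0.87 (SE 0.26, edgeR adjusted p = 0.0146). SDHA, the flavin subunit that oxidizes succinate, had 8202, 8539.9 and 7497 in EV and 6065, 6542 and 5911 in PRL3, a log2 fold change of -0.39 (SE 0.14, edgeR adjusted p = 0.0391). The call of SDHA was lost without EV replicate 1 or 2 and without PRL3 replicate 9, 10 or 11, and that of SDHD without EV replicate 1, where it was -0.50 on the log2 scale, or PRL3 replicate 9, where it was -0.75. Without EV replicate 1, or without PRL3 replicate 9, 2 of the 4 genes, SDHB and SDHC, were past the threshold.

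Complex III, the cytochrome bc1 complex, fell in all 10 of its nuclear genes, with a median of -1.59. Its redox subunit CYC1, which carries a heme, had 13292, 19763 and 14686 normalized counts in EV and 2629, 4777 and 3671 in PRL3, a log2 fold change of -2.11 (SE 0.22, edgeR adjusted p = 1.73e-05). UQCRFS1, the Rieske iron-sulfur protein, had 8193, 7195 and 6785 in EV and 3265, 4410.4 and 4058 in PRL3, a log2 fold change of -0.92 (SE 0.16, edgeR adjusted p = 0.000494). The large core proteins UQCRC1 and UQCRC2 had log2 fold changes of -2.02 (SE 0.19) and -1.03 (SE 0.15). All 4 of these core genes fell, with UQCRFS1 and UQCRC2 nearer to 0.

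UQCRH, the hinge protein that helps cytochrome c to dock (chromosome 1, 46303698 to 46316776), was among the most strongly counted members, with 34602, 31748 and 24838 normalized counts in EV and 5968, 8526 and 7675 in PRL3. Its log2 fold change was -2.04 (SE 0.19, edgeR adjusted p = 9.68e-06). UQCRHL, a single-exon gene with nearly the same coding sequence as UQCRH, had 1476, 1503 and 627 in EV and 136, 141 and 167 in PRL3, a log2 fold change of -3.02 (SE 0.30, edgeR adjusted p = 1.45e-05). That is the lowest value of any member, but reads can move between near-identical copies, so the value of UQCRHL is uncertain. UQCR11, a small accessory subunit, had 1373, 1280.1 and 1080.2 in EV and 906, 880.3 and 919.7 in PRL3, a log2 fold change of -0.46 (SE 0.16, edgeR adjusted p = 0.0359), and its call was lost without EV replicate 1 or 2 and without PRL3 replicate 9, 10 or 11.

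Cytochrome c itself, the soluble carrier between complexes III and IV and a trigger of apoptosis when released, did not pass the test. CYCS (chromosome 7, 25118656 to 25125260) had 13686, 10043 and 8791 normalized counts in EV and 7406, 8180.2 and 9116 in PRL3, so the groups overlapped. Its log2 fold change was -0.40 (SE 0.18, edgeR adjusted p = 0.0891), and it passed the test as lower with DESeq2, with all uniquely aligned reads as the library size and without EV replicate 3. Its size rested on single libraries and on the scaling, as it was -0.20 without EV replicate 1 and -0.53 without EV replicate 3, -0.21 with upper-quartile scaling and 0.10 with library size alone.

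Complex IV, cytochrome c oxidase, had 13 of its 19 nuclear genes tested, of which 12 fell and none rose, with a median of -1.61. COX8A, a small membrane subunit (chromosome 11, 63974620 to 63976543), had 4014, 5810.0 and 3188 normalized counts in EV and 490.1, 1046 and 728 in PRL3, a log2 fold change of -2.52 (SE 0.27, edgeR adjusted p = 1.95e-05). COX8A shares 35.4% of its exon length with another annotated gene on the same strand, within whose span it lies, so its counts are uncertain like those of NDUFA7. COX7A2 had 14179.7, 16777 and 11749.9 in EV and 1979, 2893 and 2913 in PRL3, a log2 fold change of -2.46 (SE 0.20, edgeR adjusted p = 7.39e-06). COX6B1, a subunit on the intermembrane space side, had 22118, 28026 and 21105 in EV and 4189, 5671 and 3973 in PRL3, a log2 fold change of -2.36 (SE 0.19, edgeR adjusted p = 7.07e-06). The groups were widely separated in each of these genes. COX4I1, the largest nuclear subunit, had 25203, 30425 and 23655 in EV and 8965, 12559 and 10476 in PRL3, a log2 fold change of -1.31 (SE 0.17, edgeR adjusted p = 6.18e-05).

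Several subunits of complex IV have paralogs that are used in muscle, testis or lung, and in these cells the common form carried nearly all reads. COX4I2, COX6A2, COX7B2 and COX8C were at 0 in all 6 libraries, COX7A1 was at 0 in all but PRL3 replicate 9, where it had 4.12 normalized counts, and COX6B2 had at most 13.2. None of these 6 genes was tested. The common forms COX4I1 and COX6A1 fell, with log2 fold changes of -1.31 and -2.18. COX7A2L, a relative of COX7A2 that helps to join complexes III and IV, had 4323, 4011 and 3401 in EV and 1964, 2343 and 2222 in PRL3, a log2 fold change of -0.85 (SE 0.15, edgeR adjusted p = 0.000718), a smaller change than that of COX7A2. NDUFA4, a subunit of complex IV despite its name, changed by -1.09 (SE 0.17). NDUFA4L2, its hypoxia-induced paralog, was barely expressed, with 41.4, 155 and 72.7 in EV and 74.1, 95.2 and 47.2 in PRL3, and did not pass the test.

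**Figure D2:**
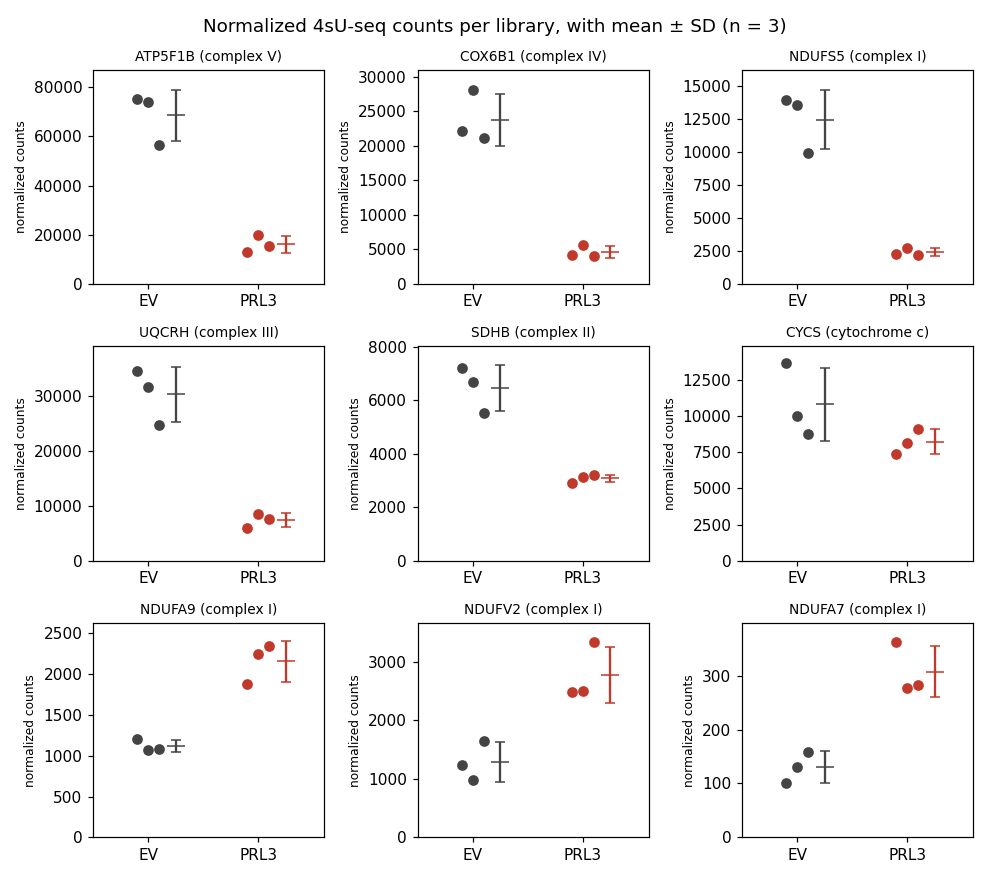
Normalized counts (y axis, from 0) of 9 members in the 3 EV and 3 PRL3 libraries, 1 point per library, with the mean and SD of each group beside them. ATP5F1B, COX6B1, NDUFS5, UQCRH and SDHB lie lower in every PRL3 library, the groups of CYCS overlap, and NDUFA9, NDUFV2 and NDUFA7 lie higher in every PRL3 library.

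Complex V, the ATP synthase, had 19 genes, all tested, of which 16 fell, 1 rose and 2 did neither, with a median of -1.44. The F1 head, where ATP is made, fell in all 5 of its genes and had the lowest median of any part of the enzyme, -1.96. ATP5F1B, its catalytic subunit beta (chromosome 12, 56638175 to 56645984), had 75121, 73934 and 56526 normalized counts in EV and 12992, 19742 and 15476 in PRL3, a log2 fold change of -2.09 (SE 0.19, edgeR adjusted p = 1.01e-05). ATP5F1A, subunit alpha, had 31230.0, 27303 and 25238 in EV and 6389, 7894 and 7242 in PRL3, a log2 fold change of -1.96 (SE 0.16, edgeR adjusted p = 7.44e-06). Subunit delta, ATP5F1D, had 4366, 7678 and 5468 in EV and 904, 1536 and 1153 in PRL3, a log2 fold change of -2.28 (SE 0.23, edgeR adjusted p = 1.55e-05). The gap between groups was several times the spread within them for alpha and beta. ATP5F1C, subunit gamma of the central shaft, changed by -1.96 and ATP5F1E, subunit epsilon, by -1.19.

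The membrane part and the stalk moved in the same direction. ATP5MC1, ATP5MC2 and ATP5MC3 encode the same mature c subunit of the rotating ring and all fell, with log2 fold changes of -1.22, -1.35 and -1.41 (SE 0.16, 0.15 and 0.19). ATP5ME, a small membrane subunit (chromosome 4, 672436 to 674330), had 12013, 14161 and 7858 normalized counts in EV and 1799, 3286 and 2826 in PRL3, a log2 fold change of -2.10 (SE 0.25, edgeR adjusted p = 2.92e-05). The peripheral stalk, which holds the head still, fell in 3 of its 4 genes with a median of -1.46. The exception was ATP5PO, the subunit that confers sensitivity to oligomycin. It had 1262, 1245 and 969 in EV and 859.7, 931 and 1097 in PRL3, a log2 fold change of -0.27. ATP5PO shares 15.5% of its exon length with another annotated gene on the same strand, within whose span it lies, so its counts are uncertain. With all uniquely aligned reads as the library size it passed the test as lower (-0.75). ATP5IF1, which inhibits the synthase when it would run in reverse, changed by -1.33 (SE 0.16).

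ATP5MF and ATP5MGL stood apart among the membrane subunits. ATP5MF had 1172, 1175 and 1063 normalized counts in EV and 1192, 1109 and 1158 in PRL3, which overlapped closely. ATP5MF shares 8.64% of its exon length with other genes on the same strand, so its counts are uncertain. Its call moved with the scaling, as it passed as higher with library size alone (0.52) and as lower with all uniquely aligned reads (-0.46). ATP5MGL, a single-exon relative of ATP5MG, had only 21.9, 40.9 and 25.5 in EV and 90.6, 87.1 and 120.1 in PRL3, a log2 fold change of 1.75 (SE 0.43, edgeR adjusted p = 0.00542). It lies within the span of CYB5R3 on the same strand, so reads from introns of that gene cannot be told apart from its own. ATP5MG itself changed by -1.73 (SE 0.18). The readthrough genes ATP5MF-PTCD1 and NDUFC2-KCTD14 had at most 12.4 normalized counts and 0, and neither was tested.

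Summed over their genes, the complexes did not keep their proportions. Relative to the summed normalized counts of complex I in the same library, complex II stood at 0.127 ± 0.0124 in EV and 0.200 ± 0.0124 in PRL3 (SD, n = 3), and cytochrome c at 0.0566 ± 0.0120 and 0.108 ± 0.0125. Both were relatively higher in every PRL3 library. Complex III stood at 0.567 ± 0.0227 in EV and 0.440 ± 0.0207 in PRL3, complex IV at 0.686 ± 0.0116 and 0.508 ± 0.0253, and complex V at 1.19 ± 0.0890 and 0.912 ± 0.0551. All 3 were relatively lower in every PRL3 library. These ratios do not depend on the scaling between libraries, and as the sums are led by a few strongly counted genes they are given without a test.

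**Figure D3:**
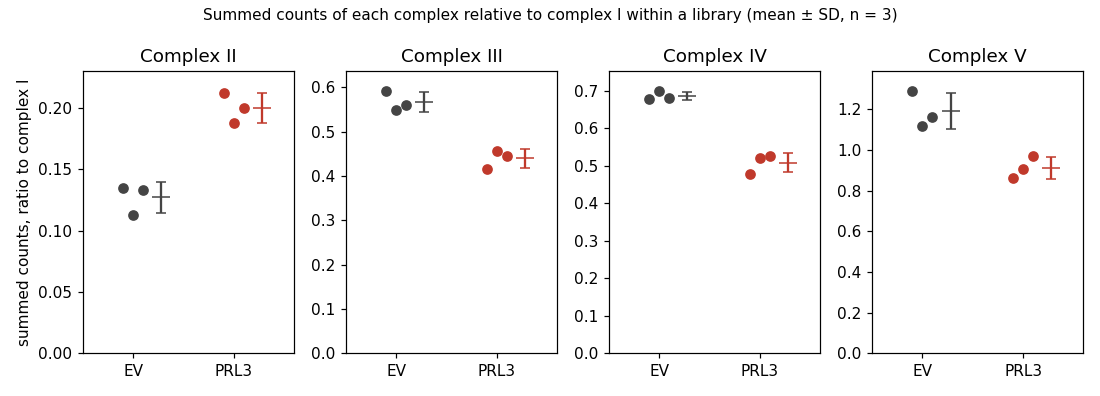
Summed counts of the members of complexes II, III, IV and V divided by those of complex I in the same library (y axis, from 0), 1 point per library with the mean and SD of 3 libraries. Complex II lies higher and complexes III, IV and V lie lower in every PRL3 library than in every EV library.

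Levels were put on a scale per length, as counts per kb of exon in TMM-scaled libraries (RPKM), and differed widely between members. The length was that of the merged exons of all annotated transcripts, which was up to 24.0 times that of the MANE transcript, the reference transcript of the gene (median 2.40). In EV, ATP5F1B was highest at 650.1 ± 98.8 (SD, n = 3), followed by NDUFB7 at 549.8 ± 168, NDUFS5 at 482 ± 86.4, UQCRH at 481 ± 79.5 and COX6B1 at 368 ± 58. NDUFB7, NDUFS5 and UQCRH did not differ beyond their spread, and NDUFA4L2 was lowest of those tested, at 0.68 ± 0.445. In PRL3, the order began with ATP5F1B at 152 ± 32.4, NDUFB7 at 127 ± 34.1 and UQCRH at 117 ± 20.6, again within their spread of each other, and 9 of the 10 highest members of EV were among the 10 highest of PRL3. NDUFS6, an accessory subunit with a zinc site, and SDHC moved up in the order, and COX5B, a peripheral subunit of complex IV, moved down. The order depended on the length used. Per kb of the MANE transcript, a choice made after the values were seen, UQCRH was highest in EV at 1202 ± 199, followed by COX6B1 at 1033 ± 163, ATP5F1B at 827 ± 126 and ATP5ME at 795 ± 225, and NDUFB9 moved from rank 57 to rank 10. In PRL3, COX4I1 was then highest at 297 ± 50.2, and 8 of the 10 highest members of EV were among the 10 highest of PRL3. The fold change had a Pearson r of -0.73 and a Spearman rho of -0.69 with this EV level.

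**Figure D4:**
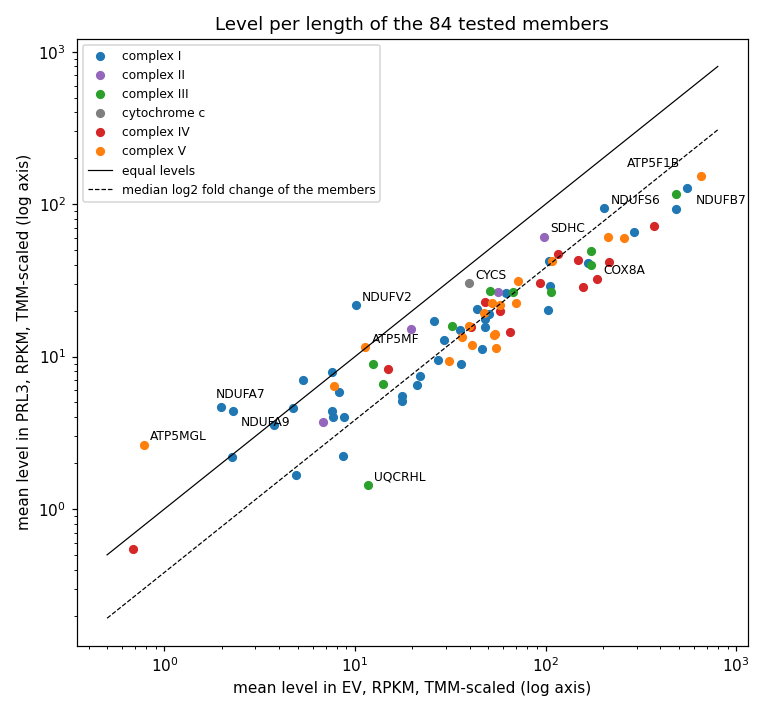
Mean level of each tested member in EV (x axis) and in PRL3 (y axis), in RPKM on TMM-scaled libraries, on log axes, coloured by complex. The solid line marks equal levels and the dashed line the median log2 fold change of the members, -1.38; points far above the dashed line are mostly at the low end of the EV level.

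Members with a high level fell more. Across the 84 members, the log2 fold change had a Pearson r of -0.73 and a Spearman rho of -0.70 with the EV level, and of -0.64 and -0.63 with the mean level of both groups. With the PRL3 level they were weaker, -0.41 and -0.43. Level and fold change come from the same libraries, and the EV level enters the fold change itself, so these values describe the members only. With gene span they were 0.24 and 0.35, and with the length of merged exons 0.29 and 0.40. The share of the span that is exon had nearly none (-0.030 and -0.023).

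Many members are short or have a high EV level, and such genes fell more often in these data. The median span was 12212.5 bp for the members tested and 34114 bp for the other protein-coding genes tested. Of the other protein-coding genes under 10 kb, 47.8% fell, with a median of -0.63. Of the 37 members under 10 kb, 34 fell, with a median of -1.71. Between 10 and 50 kb, 36.8% of the other genes fell, with a median of -0.26, and 34 of 43 members fell, with a median of -1.29. In the quintile of protein-coding genes with the highest EV level, 73.9% of the others fell, with a median of -0.89, and 60 of 61 members fell, with a median of -1.63. Among genes both under 10 kb and in that quintile, the median was -1.21 for 1007 others and -1.79 for 32 members, of which 31 fell. In this last class, 96.9% of the members and 81.2% of the others fell, and the median of the members lay further from 0. In the quintile next to the lowest by EV level, none of 5 members fell and 3 rose, and of the 2883 other genes there 15.4% fell and 23.8% rose. All classes by level were set by the EV level, which is part of the fold change. A high class is thereby tilted toward genes that fell, and a low class toward genes that rose. The values of the highest quintile are thus descriptions only, and nothing is read from these 5.

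**Figure D5:**
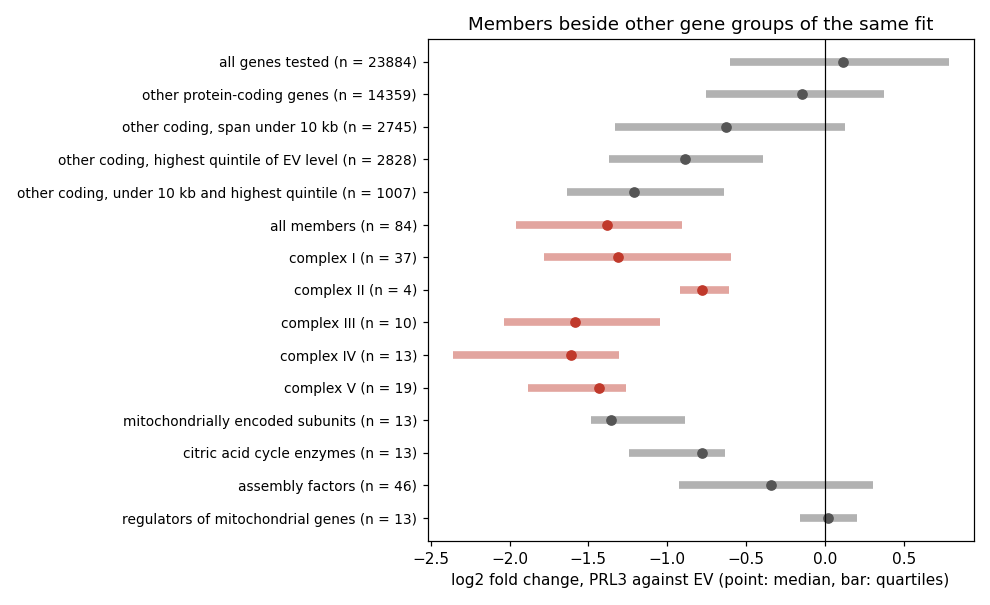
Median (point) and quartiles (bar) of the log2 fold change of PRL3 against EV for the members, their complexes (red) and other gene groups of the same fit (grey), with the number of genes tested. The median of all members is -1.38, beside -1.21 for other protein-coding genes that are under 10 kb and in the highest quintile of EV level, and 0.11 for all genes tested.

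The partners of these complexes moved to different extents, beside 22.7% of all genes tested that fell and 20.0% that rose. Of the 13 subunits encoded in mitochondrial DNA, 12 fell, with a median of -1.36, and only MT-ND6, the gene on the other strand of that genome, did not pass the test (4672, 3629 and 2574 normalized counts in EV and 1798, 2718 and 4766 in PRL3). Of the 13 genes of the citric acid cycle, which feeds electrons to the chain, 11 fell and 1 rose, with a median of -0.78. IDH3B, a subunit of the NAD-dependent isocitrate dehydrogenase, fell the most, by 1.69 on the log2 scale (SE 0.15), and SUCLG2, a subunit of the GTP-forming succinyl-CoA ligase, rose by 0.39 (SE 0.14).

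Assembly factors, which build the complexes without being part of them, were mixed. Of 46 tested, 20 fell (43.5%) and 9 rose (19.6%), with a median of -0.34. Of all genes tested, 22.7% fell and 20.0% rose, so the share that rose says nothing particular about the assembly factors. For complex I, 8 of 14 fell, among them NDUFAF2 (-1.58) and NDUFAF3 (-1.51), and NDUFAF5 rose (0.65). For complex IV, 5 of 19 fell (26.3%, near the share of all genes), among them the copper chaperone COX17 (-1.29) and COX14 (-1.69). Another 7 rose (36.8%), among them COX10 (0.67) and COX19 (0.83), and the median was 0.058. No reads were counted on SCO2 in any library, and it was not tested. Whether it was unexpressed or its reads were set aside in counting was not examined. For complexes II, III and V, 2 of 4, 3 of 6 and 2 of 3 fell, and 1, 0 and 0 rose.

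Of 13 nuclear-encoded regulators of genes for mitochondria, in the nucleus or in mitochondrial DNA, 3 fell (23.1%) and 3 rose (23.1%). Their median was 0.018. These shares are near those of all genes tested, 22.7% and 20.0%, so the counts say nothing particular about the regulators. POLRMT, the mitochondrial RNA polymerase, had 5889.6, 9117 and 6155 normalized counts in EV and 1675, 2598 and 1894 in PRL3, a log2 fold change of -1.78 (SE 0.21, edgeR adjusted p = 3.12e-05). ESRRA, an estrogen-related receptor that drives respiratory genes, had 4975, 7144 and 5318 in EV and 1600.0, 2671 and 2174 in PRL3, a log2 fold change of -1.44 (SE 0.20, edgeR adjusted p = 0.000113). Both were lower in every PRL3 library. TFB2M, a mitochondrial transcription factor, fell by 0.54, and PPARGC1B (1.16), PPRC1 (0.47) and GABPB1 (0.39) rose. NRF1, with 1273, 1471 and 1591 in EV and 2007, 1642 and 1349.6 in PRL3, YY1, with 4473, 4172 and 4113 and 5157, 4813 and 4533, and GABPA, with 1375, 948 and 978 and 810.3, 986 and 1163, did not pass the test. PPARGC1A, the coactivator best known for raising mitochondrial genes, had between 43.3 and 119 normalized counts.

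Processed copies of the members are scattered over the genome and could take reads. The annotation held 231 pseudogenes named for 51 members. Their reads came to 0.763% ± 0.0425 of the members' reads in EV and 2.62% ± 0.353 in PRL3 (SD, n = 3). In no library did they exceed 3.02% of the members' reads. As only uniquely aligned reads were counted, reads that fit a member and a copy equally well are in neither sum. This share is therefore no bound for such reads.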

How the data were processed

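STAR 2.5.1b was used by the authors to align read pairs to GRCh38, and they deposited raw counts per Ensembl gene (release 91) from HTSeq 0.6.1 with its reverse-strand setting, with no normalization. Tools and versions are from the submitters' processing notes. The mode for overlapping genes is not given in the sources used here. Rows for reads outside exons, ambiguous reads and the like stayed out of the tests, and reads outside exons made up 28.7% to 69.1% of uniquely aligned reads.

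Symbols, coordinates and merged exon lengths came from GENCODE 44 (same build, later release), which matched 57532 of the 58243 identifiers. PRL3 was compared with EV by edgeR 4.0.16 under R 4.3.3 (TMM, filterByExpr, quasi-likelihood test, Benjamini-Hochberg over 23884 genes, threshold 0.05). The same steps were run on simulated data in which few genes changed, as many up as down. That setting is unlike the broad change here, so it does not speak to the choice of scaling. The standard error of a log2 fold change was derived from the F statistic. Of the single-gene exact permutation tests over 3 against 3 libraries none can go below p = 0.1, so they are not given gene by gene. Ratios and classes are descriptions with no test.

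The members and lists were chosen with earlier results of these data known. Named were the 3 lowest and 2 highest members of complexes I, III, IV and V, the SDH genes, CYCS, the complex I core, paralog pairs, ATP5F1A and untested members. Every member that did not fall, other members given as examples, and the descriptions of shared exons, host genes and marker sums were added after values were seen. One member is counted in the totals but not reported here on its own. Alternatives were scaling by RLE, by the upper quartile or by library size, all uniquely aligned reads as library size, DESeq2 1.42.0, limma-voom (limma 3.58.1), 2 other filters, protein-coding genes alone, an adjusted p of 0.01, NDUFA4 and NDUFA4L2 in complex I, and leaving out each library, and, added after the values were seen, the length of the MANE transcript for levels. Culture or pulldown batch cannot be told apart from the group.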

Additional observations from a re-analysis of the deposited data

Results flagged for a closer look

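Reads outside annotated exons were not used in any comparison of genes, and they took a larger share in PRL3. Of the uniquely aligned reads, 66.3% ± 3.18 (SD, n = 3) fell outside exons in the PRL3 libraries and 33.3% ± 6.75 in the EV libraries, and the groups did not overlap. The members' share of the exon counts was lower in the same libraries. Its part in the result was not tested.

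Reads on the 231 pseudogenes named for members came to 2.62% ± 0.353 of the members' own reads in PRL3 and to 0.763% ± 0.0425 in EV (SD, n = 3). As a share of all gene counts the pseudogenes ranged from 0.0150% to 0.0170% in PRL3 and from 0.00891% to 0.0103% in EV. Both measures were higher in every PRL3 library than in every EV library.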

How the results depend on the processing

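Of the 71 members that fell, 68 stayed below 0 and 63 past the threshold under all 16 alternatives that refit the genes. The exceptions were NDUFB1, NDUFB8, NDUFV3, SDHA, SDHC, SDHD, UQCR11 and COX7A2L, and SDHA (0.11), UQCR11 (0.036) and NDUFV3 (0.014) were above 0 with library size alone. With that scaling, 3078 genes fell and 9514 rose, 8 members rose, 1 complex II gene fell, and the medians were -0.88 for all members and -0.82, -0.28, -1.09, -1.12 and -0.94 for complexes I to V. With all uniquely aligned reads, 8473 genes fell and 1952 rose, and the medians were -1.87 for all members, -1.79, -1.26, -2.07, -2.09 and -1.92 for complexes I to V, and -0.36 for all genes. The members rose in 11.3% of their calls with library size alone and in 5.33% with TMM, and all genes in 75.6% and 46.9%. With upper-quartile scaling the medians of all members, complex I and complex II were -1.19, -1.13 and -0.59, and with protein-coding genes alone -1.20, -1.13 and -0.59. At an adjusted p of 0.01, 2719 genes rose and 2 complex II genes fell. Leaving out 1 library gave 2 to 4 complex II genes that fell and a complex II median from -0.90 to -0.55 (lowest count without EV replicate 1 or PRL3 replicate 9). Beyond these, the counts per complex stayed within 1.5 times of those reported, also with NDUFA4 and NDUFA4L2 in complex I.

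Members that passed the test in neither direction changed sign between settings. With library size alone ATP5PO was at 0.23, CYCS at 0.10, NDUFA10 at 0.46, NDUFA4L2 at 0.18, NDUFA5 at 0.44 and NDUFC2 at 0.43. With all uniquely aligned reads ATP5MF was at -0.46, NDUFA11 at -0.40 and NDUFA13 at -0.070. NDUFA10, NDUFA5 and NDUFC2 were at 0.14, 0.13 and 0.11 with upper-quartile scaling and at 0.15, 0.13 and 0.11 with protein-coding genes alone. NDUFA10 was at 0.0079 with at least 10 counts in every library, and ATP5MF at -0.018 with RLE scaling and with DESeq2. Leaving out 1 library gave -0.034 to 0.061 for ATP5MF, -0.095 to 0.031 for NDUFA10, -0.12 to 0.18 for NDUFA11, -0.66 to 0.35 for NDUFA4L2, -0.22 to 0.25 for NDUFA5 and -0.28 to 0.063 for NDUFC2. No paired analysis was possible because the groups share no replicate numbers in the labels. The 8 members not tested had too few reads for the filter, and among those tested the standard error was largest for NDUFA4L2 (0.49) and ATP5MGL (0.43), which had few reads. Per kb of the MANE transcript, the EV levels of UQCRH, COX6B1 and ATP5F1B moved by more than their SD and those of NDUFB7 and NDUFS5 did not.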
